A study of Caenorhabditis elegans with 95 samples.

Results

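The ephrin family of C. elegans on the array comprised the receptor gene vab-1, the Eph receptor tyrosine kinase, and the ephrin genes vab-2 (also called efn-1), efn-2, efn-3 and efn-4. Members were the probe sets annotated with exactly 1 of these gene symbols: 7 of the 22548 probe sets that are not array controls, and 5 of 17118 genes. Probe sets 175372_s_at and 193384_at read vab-1 (sequence name M03A1.1), 176469_s_at read vab-2 (Y37E11AR.6), 178996_at read efn-2 (C43F9.8), 178940_at read efn-3 (F15A2.5), and 175497_at and 185839_at read efn-4 (F56A11.3). The family was chosen by the 24-h profile of vab-2 under constant temperature in these arrays, so the profiles on those arrays are given as a description and carry no test.

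Ephrins are membrane-anchored ligands, in the worm held by a lipid anchor, and Eph receptors are receptor tyrosine kinases, so the pair signals between touching cells. In the C. elegans embryo VAB-1 and the ephrins order the neuroblasts over which the epidermis closes at ventral enclosure, and in later life they act in axon guidance. VAB-1 also acts in oocytes and gonadal sheath, where the major sperm protein released by sperm binds it and relieves a block on oocyte maturation. EFN-4 is the divergent ephrin, with roles outside VAB-1 signalling that include the semaphorin MAB-20.

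RNA came from whole adults of the wild-type Bristol N2 strain, held on FUDR from the L4 stage so that no progeny would grow up. A light cycle at 18 °C gave 18 arrays of the entrained day (LD; series 3, 4 and 6), 18 of the following day in darkness (DD; series 2, 4 and 6) and 11 of animals kept in darkness and never entrained (controls; series 4 and 6). A cycle of 25 °C and 15 °C in darkness gave 30 arrays of the entrained day (WC; series 1, 2, 3, 4 and 6) and 18 of the following day at a constant 15 °C (CC; series 3, 4 and 6). Each series had 6 times, 4 h apart, except that hour 6 of control series 6 was not analysed here, and hours 26 to 46 of a free-running day are the 2 to 22 of its cycle. Light or warmth fell on hours 2 to 10 of the entrained days. The labels describe 2 populations grown under opposing cycles, so hours 2 to 10 and hours 14 to 22 may come from different animals, and the free-running day is also 1 day older than the entrained day. The hour of the cycle and the population cannot be told apart, and neither can free running and age.

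The deposited values are scores: each probe set's log2 expression relative to the mean of its series, with every array scaled to mean 0 and SD 1. A score has no level, so probe sets cannot be ranked by abundance and no fold change can be given. The floor is the score at which probe sets pile up most densely on an array, and lay between −0.106 and 0.105. A probe set that stays close to its series mean also lies there, at whatever level. Standing off the floor therefore shows change between arrays and not detection. All 7 probe sets stood off the floor in every condition (root mean square distance of at least 0.1), except 185839_at of efn-4 in controls, where 10 of 11 arrays lay within 0.1 of it. The material was whole bodies, and most marker genes of neurons, epidermis, oocytes, embryos, muscle and intestine were off the floor in every condition, with 8 of 8 embryo markers off it in WC and in CC. Sperm markers were off it at 5 of 6 genes in WC and in CC, 3 in LD, 2 in DD and 3 in controls. In such bulk RNA, fewer cells of a type and less RNA per cell cannot be told apart.

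At constant 15 °C vab-2 was high through the hours that had been warm and low through those that had been cold. In CC series 3 its scores at hours 26 to 46 were 2.20, 2.53, 3.73, −0.86, −1.15 and −0.81. In series 4 they were 1.40, 1.82, 1.94, 0.52, −1.26 and −0.60, and in series 6 they were 3.06, 4.91, 3.31, 2.00, 1.42 and 0.20. Within each series every score of hours 26 to 34 lay above every score of hours 38 to 46. The means at the 6 hours were 2.22 ± 0.83, 3.09 ± 1.62, 2.99 ± 0.94, 0.55 ± 1.43, −0.33 ± 1.52 and −0.40 ± 0.54 (SD, n = 3). The fitted 24-h cosine had an amplitude of 2.04 (SE 0.24) and peaked at hour 6.94 of the cycle, and 0.648 of the power of the 3 appended series lay at 24 h. The mean of hours 26 to 34 exceeded that of hours 38 to 46 by 2.83 (SE 0.34), and by 3.76, 2.17 and 2.55 in series 3, 4 and 6. Of all probe sets in CC, 0.795%, vab-2 included, had an absolute difference at least as large. Over all 16470 probe sets in this condition the 24-h test called 0.0121% and the test of hours 26 to 34 against hours 38 to 46 called 0.164%.

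**Figure D1:**
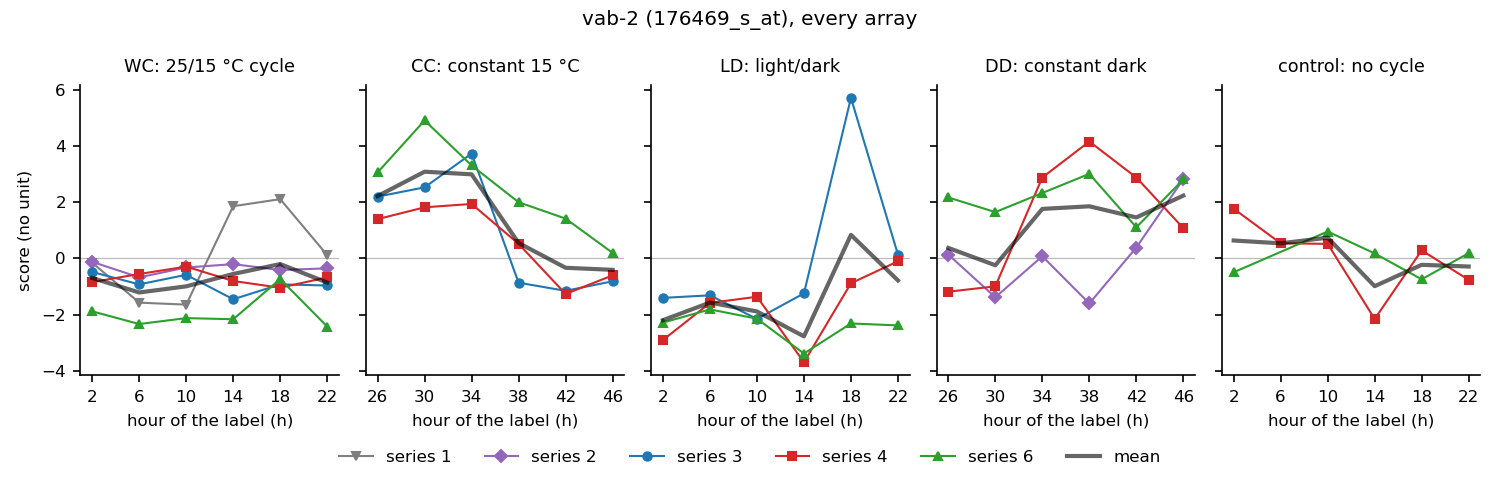
Scores of vab-2 (176469_s_at) against the hour of the label, 1 panel per condition, with 1 thin line per time series and a thick line for the mean. In CC every series is higher at hours 26 to 34 than at hours 38 to 46, and in LD the single high array is 5.71 at hour 18 of series 3.

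The ephrin efn-4 was also higher in the earlier hours of the CC day. Its probe set 175497_at scored 1.39, 1.52, 2.14, −0.41, −1.01 and 1.05 in CC series 3, then 0.59, −0.36, 1.06, 0.04, −0.02 and 0.98 in series 4. In series 6 it scored 1.54, 2.78, 2.77, 1.53, 1.55 and 0.23. The early mean was the higher in 3 of 3 series, by 1.05 on average (0.10 to 1.80), with a fitted amplitude of 0.73 (SE 0.26) and a peak at hour 6.68. Single hours overlapped between hours 26 to 34 and hours 38 to 46 in series 4 and 6, unlike those of vab-2.

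The other efn-4 probe set, 185839_at, lay within 0.1 of the floor on 5 of the 18 CC arrays. It scored −0.08, 0.89, 1.24, −0.03, −0.03 and −0.07 in series 3, and −0.21, −0.20, 0.85, −0.18, 0.09 and −0.12 in series 4. In series 6 it scored 0.68, 2.17, 3.26, 0.71, 0.60 and −0.17. Its highest array was hour 34 in each of the 3 series. In series 4 that array was the only one above 0.09, so the difference of 0.22 there rests on 1 array. The fitted amplitude was 0.79 (SE 0.20) with a peak at hour 9.01, and hours 26 to 34 exceeded hours 38 to 46 by 0.87 (0.22 to 1.66).

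The remaining members had other profiles in this fit. The ephrin gene efn-3 was lower at hours 26 to 34 in 3 of 3 series, by 1.43 on average, with an amplitude of 1.14 (SE 0.59) and a peak at hour 16.2. It scored −2.52, −0.86, −1.68, −0.48, −1.57 and −2.48 in series 3, and −4.19, −3.02, −4.32, −0.89, 3.13 and −5.06 in series 4. In series 6 it scored −3.57, −2.14, −3.06, −2.41, −2.25 and −0.51. A single array, hour 42 of series 4, was the only one above 0. The CC scores were centred together with the WC day of the same series, so their sign also carries the difference between those days. The receptor vab-1 had amplitudes of 0.14 at 175372_s_at (scores −0.63 to 1.42, median 0.42) and 0.46 at 193384_at (−1.32 to 2.57, median 0.73). Its differences of mean between hours 26 to 34 and hours 38 to 46 were −0.06 and 0.35. A fit with a linear trend over the day in place of single hours left steps of 1.01 and 2.59 beside the slope. Such steps are not differences of means. The ephrin gene efn-2 had an amplitude of 0.22, with scores of −1.86 to 4.21 and a median of 0.30.

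**Figure D2:**
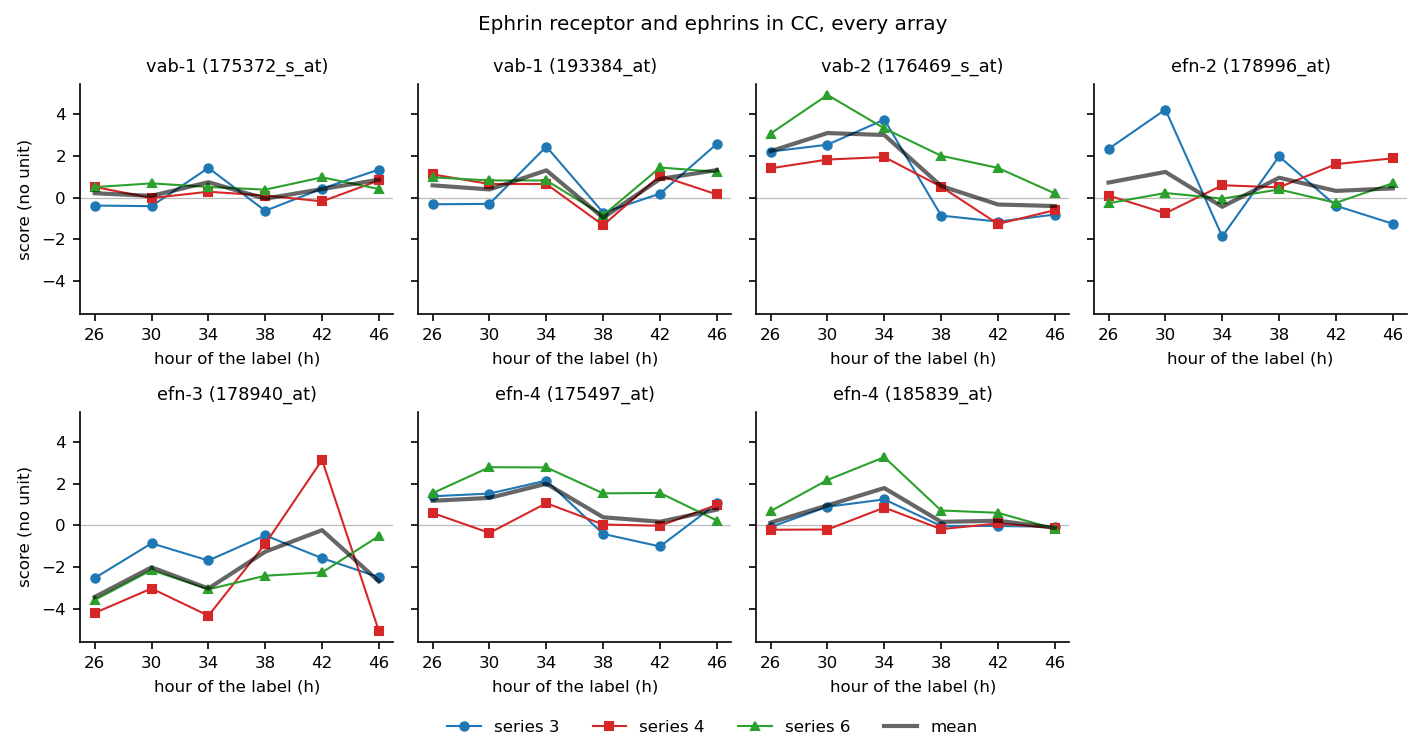
Scores of the 7 ephrin family probe sets in CC against the hour of the label, with 1 thin line per time series (3, 4 and 6) and a thick line for the mean. The vab-2 panel is higher at hours 26 to 34 than at hours 38 to 46 in every series, 185839_at of efn-4 is highest at hour 34, and efn-3 lies below 0 on all but 1 array. Scores of a series are centred over its WC and CC days together.

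Embryo markers (pes-10, vet and end genes and others, 10 probe sets) also differed between the earlier and later hours of the CC day. Their list median over hours 26 to 34 exceeded that over hours 38 to 46 by 1.60 in series 3 and 1.30 in series 6, and was lower by 0.12 in series 4. The vab-2 difference in series 4 was 2.17, the smallest of the 3. The same difference for body wall muscle markers was −0.25, 1.49 and 0.23 in series 3, 4 and 6. The part of either marker group in the ephrin profiles was not tested.

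On the WC day itself vab-2 had no call for a rhythm, and was low beside the CC day in series 3, 4 and 6. The WC ranges and medians given here pool series centred over both days with series that were not. Over 30 WC arrays vab-2 ranged from −2.42 to 2.11 with a median of −0.70, and its highest array was hour 18 of series 1. The fitted amplitude was 0.38 (adjusted p = 0.464). In series 3, 4 and 6, the series that also have a CC day, the largest WC score was −0.29, while the lowest CC score of hours 26 to 34 was 1.40. No member passed the 24-h test in WC (0 of 7), where 6.29% of all probe sets did, and none passed the test of warm against cold hours (2 to 10 and 14 to 22), where 3.84% did. The nearest in WC was efn-4 at 175497_at, whose mean over warm hours minus that over cold hours was −0.64 (SE 0.24, adjusted p = 0.153), below 0 in 5 of 5 series. The step left beside a linear trend over the day was 0.80, which is not that difference of means. Scores at 175497_at ran from −2.27 to 2.11 with a median of −0.72. At 185839_at the mean over warm hours minus that over cold hours was −0.28 (adjusted p = 0.376), again below 0 in 5 of 5 series, over scores of −2.03 to 0.65. The receptor vab-1 ran from −1.08 to 1.05 (median −0.14) at 175372_s_at and from −1.52 to 1.63 (median −0.52) at 193384_at, and efn-3 from −2.02 to 5.00 (median 0.93).

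The ephrin efn-2 had the largest WC amplitude of the family, 1.15 with a peak at hour 3.17 (adjusted p = 0.283). Its WC scores ran from −3.61 to 5.38 with a median of −0.56, the widest range of the 7 probe sets in that condition. With array weights in the limma fit the adjusted p of this rhythm was 0.0472, the 1 member call in WC under any setting tried. That setting called 3645 of the 17342 probe sets in WC, against 1091 in the fit without weights.

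Under the light cycle no member passed either test: 0 of 7 for the 24-h rhythm, against 1.00% of all probe sets, and 0 of 7 for light against dark hours, against 11.5%. The receptor vab-1 at 193384_at came nearest, with an amplitude of 0.99 (SE 0.37), a peak at hour 20.5 and an adjusted p of 0.197. Its LD scores ran from −2.96 to 1.93 with a median of −0.57, and light hours were below dark hours in 3 of 3 series, by 1.17 on average (SE 0.49, adjusted p = 0.127). The step left beside a linear trend over the day was 0.49, which is not that difference of means. The other vab-1 probe set ran from −1.25 to 0.92. The ephrin efn-2 was higher in light hours in 3 of 3 series (difference 1.51, adjusted p = 0.191; amplitude 1.22, peak at hour 8.92, adjusted p = 0.277). Its LD scores ran from −4.62 to 3.10 with a median of 0.08. For efn-3 the LD difference was −1.68 (adjusted p = 0.207), over scores of −1.48 to 5.92. The efn-4 scores ran from −1.56 to 1.57 (median −0.78) at 175497_at and from −2.10 to 1.08 at 185839_at, where 9 of 18 arrays lay on the floor.

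The vab-2 profile in LD held 1 array far above the rest. In LD series 3 it scored −1.40, −1.31, −2.15, −1.24, 5.71 and 0.14 at hours 2 to 22. In LD series 4 it scored −2.90, −1.58, −1.36, −3.69, −0.88 and −0.10, and in series 6 it scored −2.28, −1.81, −2.14, −3.38, −2.31 and −2.38. All LD scores other than the last 2 of series 3 were thus below 0. Series 4 and 6 were centred together with their DD day, so their sign also carries the difference between those days. LD series 3 and DD series 2 were centred over their own day, and the LD and DD ranges and medians given here pool both kinds. The amplitude of 1.01 had an adjusted p of 0.433, and light minus dark hours was −0.98 (adjusted p = 0.373) in all series and 0.11 without series 3.

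In darkness after light vab-2 leaned the opposite way from CC, without passing a test. In DD series 2 it scored 0.14, −1.38, 0.08, −1.60, 0.39 and 2.82 at hours 26 to 46. In DD series 4 it scored −1.18, −0.99, 2.88, 4.16, 2.88 and 1.08, and in series 6 it scored 2.17, 1.65, 2.33, 3.01, 1.11 and 2.81. Hours 26 to 34 were below hours 38 to 46 in 3 of 3 series, by 1.22 on average (adjusted p = 0.430), and the amplitude was 0.94 with a peak at hour 16.8 (adjusted p = 0.575). In DD limma called 0 members and 0 of 16406 probe sets in either test (2205 for the 24-h rhythm and 2537 for earlier against later hours at an unadjusted p under 0.05). The vab-2 step left beside a linear trend over the day was 0.10, which is not a difference of means. The difference from CC was not tested, since the CC profile chose the family. The efn-4 gene at 175497_at also had lower means at hours 26 to 34 in 3 of 3 series (difference −0.74), over scores of −2.33 to 2.69 with a median of 0.67. The other DD ranges were −0.71 to 1.00 and −1.27 to 1.99 for the 2 vab-1 probe sets, −5.31 to 3.97 for efn-2, −2.23 to 1.15 for efn-3 and −1.08 to 2.27 for efn-4 at 185839_at, where 11 of 18 arrays lay on the floor.

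In the never-entrained controls vab-2 scored 1.77, 0.54, 0.52, −2.15, 0.29 and −0.76 in series 4, and −0.49, 0.96, 0.18, −0.74 and 0.19 in series 6. The controls were centred over their own day, as were LD series 3, DD series 2 and WC series 1, so the mean of such a day is set near 0 by the scaling. WC series 2 was not, and it has no CC day. The amplitude of vab-2 in controls was 0.78 (adjusted p = 0.953). Among the controls efn-3 had 1 high array, 6.10 at hour 10 of series 6, against a median of −1.36 and a lowest score of −2.39. The vab-1 probe sets ran from −0.56 to 0.47 and from −2.13 to 2.35, efn-2 from −2.55 to 2.19 and efn-4 at 175497_at from −1.45 to 0.74. No member and 0 of 16579 probe sets were called there by limma in either test (372 and 523 at an unadjusted p under 0.05).

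Profiles were next compared between conditions, with CC left out. No member passed the test of a difference in 24-h rhythm between WC and LD (lowest adjusted p = 0.389), LD and DD (0.631), LD and controls (0.437) or DD and controls (0.652). Over all probe sets the share called was 4.42% for WC against LD and 0.00598% for LD against DD (1318 at an unadjusted p under 0.05), and 0% for LD and for DD against controls (1943 and 1293 at an unadjusted p under 0.05). Without control series 4 the DD against control test called efn-3 (amplitude of the difference 4.07, adjusted p = 0.00703), and without control series 6 it called vab-1 at 193384_at (1.97, adjusted p = 0.0477). Those 2 fits also called 339 and 676 probe sets of the whole array, against 0 with both control series.

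Whole days were compared next. In some series (WC and CC 3, 4 and 6, LD and DD 4 and 6) the scores were centred over both days together, so the day means can be compared. The CC arrays on which vab-2 was chosen enter WC minus CC, so the vab-2 values of that comparison are a description with no test. LD minus DD uses none of those arrays. On the entrained day vab-2, efn-4 and the receptor vab-1 stood lower than on the following free-running day, and efn-3 stood higher. Each series contributes 6 arrays a day.

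The mean WC scores of vab-2 were −0.89, −0.70 and −1.94 in series 3, 4 and 6, against CC means of 0.94, 0.64 and 2.49. In LD the means were −1.75 and −2.38 in series 4 and 6, against DD means of 1.47 and 2.18. The days did not overlap in series 6 of either experiment and overlapped in the others. Hour by hour, vab-2 was lower in WC than in CC at 16 of 18 matched hours, and lower in LD than in DD at 12 of 12. The differences were −2.53 (SE 0.41) for WC minus CC and −3.89 (SE 0.56, adjusted p = 2.55e-05) for LD minus DD.

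The ephrin efn-3 was higher in WC than in CC. Its mean WC scores were 1.30, 2.20 and 1.82, against CC means of −1.60, −2.39 and −2.32, and it was higher in WC at all 18 matched hours. The WC minus CC difference was 3.88 (SE 0.60, adjusted p = 1.52e-05). In LD its means were 0.37 and 0.95, against DD means of −0.34 and −1.0, and the difference of 1.33 (SE 0.62) did not pass (adjusted p = 0.0862).

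**Figure D3:**
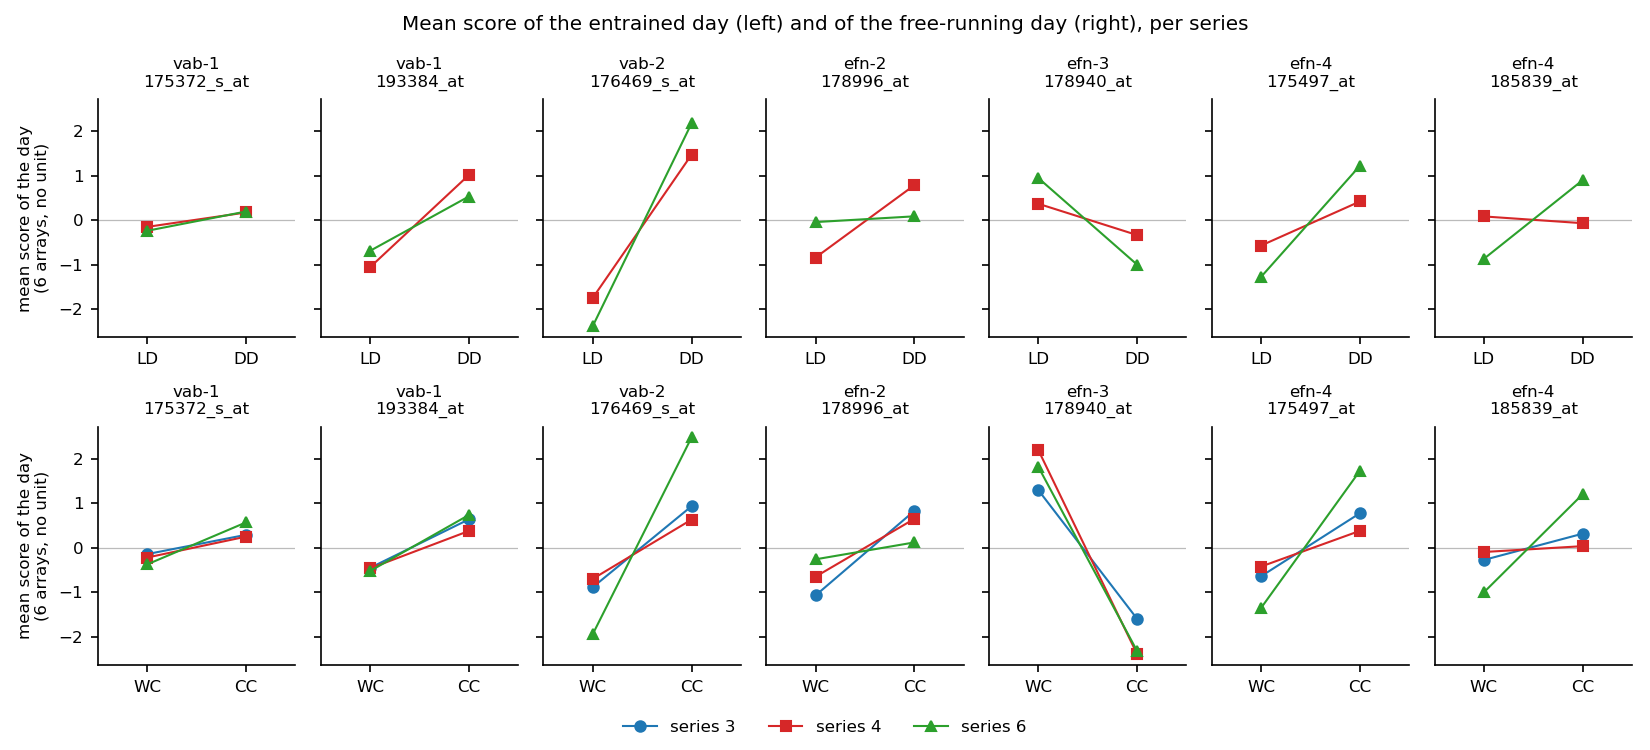
Mean score of the day for each time series (6 arrays a mean), with the entrained day on the left and the free-running day on the right of each panel, LD and DD in the upper row and WC and CC in the lower row. The entrained-day means of vab-2 and of efn-4 at 175497_at are below 0 and the free-running means above 0 in all 5 pairs of days, and those of efn-3 are the other way round.

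For efn-4 at 175497_at the WC means were −0.64, −0.42 and −1.35, against 0.78, 0.38 and 1.73 in CC, a difference of −1.77 (SE 0.31, adjusted p = 6.56e-05). Its LD means were −0.57 and −1.28, against 0.42 and 1.22 in DD, a difference of −1.75 (SE 0.41, adjusted p = 0.00197). It was lower on the entrained day at 17 of 18 matched hours in WC and 11 of 12 in LD. At 185839_at the difference was −0.98 (SE 0.27, adjusted p = 0.00689) for WC minus CC and −0.81 (SE 0.31, adjusted p = 0.0421) for LD minus DD. In series 6 its means were −0.87 in LD and 0.90 in DD, and in series 4 they were 0.08 in LD and −0.07 in DD.

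The receptor vab-1 was also lower on the entrained days. At 193384_at its WC means were −0.45, −0.46 and −0.52, against CC means of 0.64, 0.38 and 0.74 (difference −1.07, SE 0.27, adjusted p = 0.0036). Its LD means were −1.06 and −0.69, against DD means of 1.01 and 0.53 (difference −1.65, SE 0.35, adjusted p = 8.75e-04), and it was lower in LD at 12 of 12 matched hours. At 175372_s_at the difference passed for WC minus CC (−0.62, SE 0.15, adjusted p = 0.0029) and not for LD minus DD (−0.38, SE 0.20, adjusted p = 0.121). The ephrin efn-2 differed by −1.20 (SE 0.44, adjusted p = 0.0365) for WC minus CC and −0.88 (SE 0.32, adjusted p = 0.029) for LD minus DD, and its series 6 means were −0.26 in WC, 0.12 in CC, −0.04 in LD and 0.08 in DD.

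In all, 6 of 6 probe sets were called for WC minus CC with vab-2 left out, where 31.2% of all probe sets were, and 5 of 7 for LD minus DD, where 47.7% were. The median absolute difference over the 7 member probe sets, vab-2 included, was 1.20 for WC minus CC, against 0.36 over all probe sets. For LD minus DD these medians were 1.33 and 0.53. The member median of WC minus CC thus holds the vab-2 value and is a description only. All probe sets together had a median of 0.13 for LD minus DD and 0.03 for WC minus CC. The labels do not say that arrays of 1 series are separate cultures, and with 1 difference per series as the unit no member passed in either comparison: the lowest adjusted p was 0.0644 (efn-3, WC minus CC), and vab-2 gave 0.145 for LD minus DD. That fit called 0.552% of all probe sets for WC minus CC and none for LD minus DD (3786 at an unadjusted p under 0.05).

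Several calls also rested on 1 series. Without series 6, WC minus CC was no longer called at both vab-1 probe sets (adjusted p = 0.132 and 0.0903), efn-2 (0.0926) and efn-4 185839_at (0.21), while efn-4 175497_at was still called, at −1.11. The vab-2 value was then −1.58. Without series 3 or without series 4 the efn-2 call was lost. For LD minus DD, the calls of vab-1 193384_at (0.0806) and efn-2 (0.749) were lost without series 4 and both efn-4 calls without series 6 (adjusted p = 0.196 at 175497_at, and a value of 0.15 at 185839_at), while vab-2 was called in each case, at −4.56 and −3.22.

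**Figure D4:**
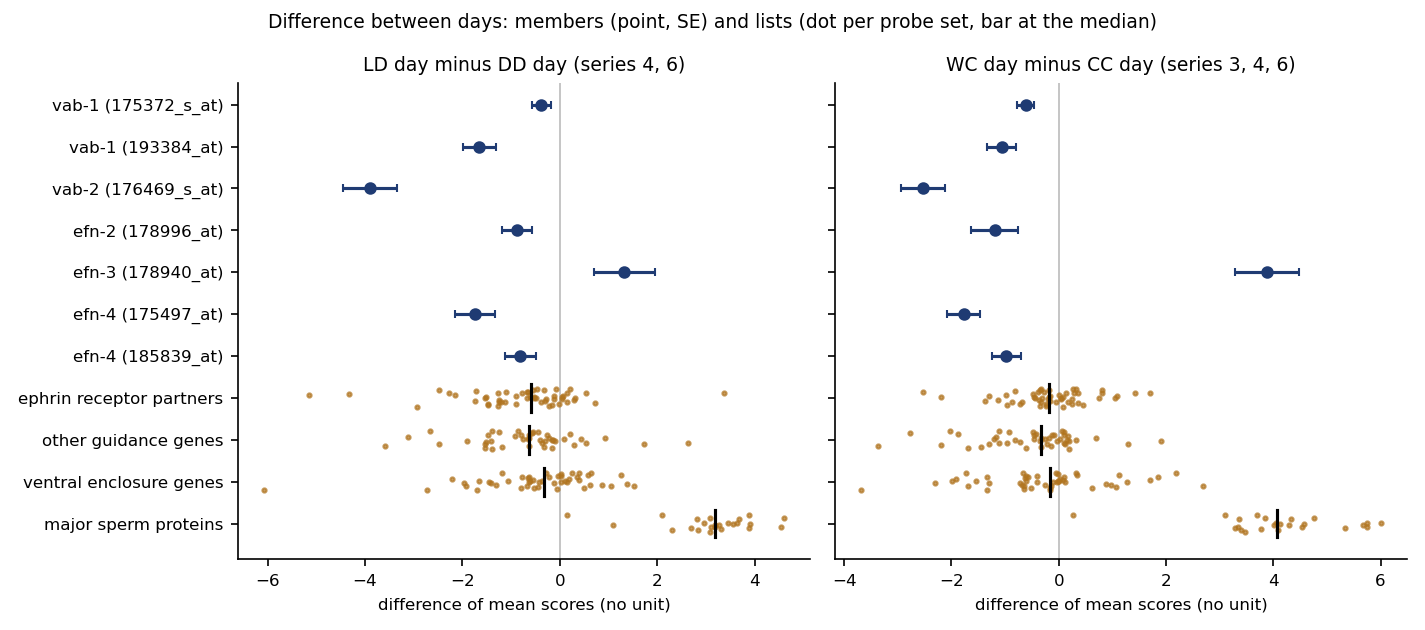
Fitted difference of day means of the score, LD minus DD on the left and WC minus CC on the right, for each ephrin family probe set (point with standard error bar) and for the probe sets of 4 gene lists (1 dot each, black bar at the list median). The vab-2 points are at −3.89 and −2.53, the efn-3 points are above 0, and the major sperm protein medians are 3.19 and 4.06.

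In the temperature experiment the day difference was split by hour of the cycle, which goes with the temperature at sampling. That temperature cannot be told apart from the hour or the population. At hours 2 to 10 the WC animals were at 25 °C and the CC animals at 15 °C, while at hours 14 to 22 both were at 15 °C. For vab-2 the WC minus CC difference was −3.88 ± 1.83 over the earlier hours (−5.88 to −2.28) and −1.18 ± 1.56 over the later hours (−2.98 to −0.17; SD, n = 3 series). Both were below 0 in all 3 series. For efn-3 the same differences were 4.71 and 3.05, and for efn-4 at 175497_at they were −2.49 and −1.05. In the light experiment vab-2 differed by −3.16 over hours 2 to 10 and by −4.63 over hours 14 to 22, when both LD and DD animals were in darkness. The WC minus CC values of vab-2, over earlier and later hours alike, use the CC profile that chose the family. They are a description only.

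Marker genes of other cell types moved between the same days. For WC minus CC, 4 of 10 embryo marker probe sets fell and 1 rose (list median −0.98), and for LD minus DD 6 of 9 fell and 1 rose (list median −1.31). The embryo list median was −0.59, −0.35 and −0.40 in WC series 3, 4 and 6, against 0.65, −0.08 and 0.70 in CC. It was −0.53 and −0.92 in LD series 4 and 6, against 0.31 and 0.96 in DD. Body wall muscle markers rose at 6 of 6 probe sets for WC minus CC and 5 of 6 for LD minus DD. Oocyte and germ line markers fell at 2 and rose at 0 of 10 for WC minus CC, and fell at 2 and rose at 1 of 10 for LD minus DD. Epidermis and cuticle markers fell at 4 and rose at 6 of 12 for WC minus CC, and fell at 2 and rose at 5 of 12 for LD minus DD. Intestine markers passed at 0 of 4 for WC minus CC and rose at 4 of 4 for LD minus DD. Neuron markers fell at 1 and rose at 3 of 15 for WC minus CC, and fell at 6 and rose at 2 of 14 for LD minus DD. Of all probe sets, 31.2% were called for WC minus CC and 47.7% for LD minus DD. With 1 difference per series no marker probe set of these types was called in either comparison. The part of these markers in the ephrin differences was not tested.

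Transcripts of the sperm-borne ligand of VAB-1 were higher on the entrained days. Of the 24 probe sets for major sperm protein genes, 23 rose and 0 fell for WC minus CC (list median 4.06), and 21 rose and 0 fell for LD minus DD (list median 3.19). Of all probe sets, 15.1% were called above 0 for WC minus CC and 26.4% for LD minus DD. The list median was 1.86, 1.74 and 1.55 in WC series 3, 4 and 6, against −2.42, −1.69 and −2.72 in CC. Examples with the lowest adjusted p are msp-40 (3.84, adjusted p = 1.83e-07) in WC minus CC and msp-63 (3.27, adjusted p = 7.12e-04) in LD minus DD. With 1 difference per series, 21 of 24 were still called for WC minus CC and 0 of 24 for LD minus DD (lowest adjusted p = 0.177). These genes are near-identical copies and many of their probe sets are shared, so the 24 are not separate measurements, and no gene of the list can be told from its copies. No major sperm protein probe set passed a 24-h test in any condition. Light minus dark hours in LD was above 0 at 0 of 24 (median −2.02), and warm minus cold hours in WC at 23 of 24 (median 0.57), with 0 called in either. Sperm markers outside this family rose at 3 of 5 probe sets for WC minus CC and 1 of 3 for LD minus DD, and fell at none.

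Genes with genetic or physical links to VAB-1 or the ephrins (26 genes, 52 probe sets kept) were called in part. For LD minus DD, 26 of 52 probe sets fell and 3 rose (list median −0.58), and for WC minus CC 16 fell and 5 rose (list median −0.18), beside 21.3% below and 26.4% above 0 among all probe sets for LD minus DD and 16.1% below and 15.1% above for WC minus CC. With 1 difference per series, 0 of 52 were called in either comparison (lowest adjusted p = 0.145 for LD minus DD and 0.064 for WC minus CC). The Robo receptor gene sax-3 fell by 2.48 in LD against DD (adjusted p = 2.98e-07), and sax-7, the L1-type adhesion molecule, fell by 5.15 and 2.27 at its 2 probe sets of lowest p. In WC against CC kal-1, the anosmin homologue that acts in epidermal morphogenesis, fell by 2.53 (adjusted p = 5.16e-05), mab-20, the semaphorin, fell by 2.19, and pat-3, the beta integrin, fell by 0.69. The phosphatase receptor gene ptp-3, which acts with vab-1 in the embryo, fell by 1.26 in LD against DD and by 1.13 in WC against CC, and gsa-1, a G-protein gene that promotes oocyte maturation, rose by 3.36 and by 1.43 in the same comparisons. Both were named after their values were seen.

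Rhythm calls among these partners are given beside those of all probe sets. The 24-h test called 6.29% of all probe sets in WC, 1.00% in LD and 0.0121% in CC, and the warm against cold contrast 3.84% in WC. In WC the calcium/calmodulin kinase gene unc-43 passed the 24-h test at 2 of 52 probe sets, with amplitudes of 1.37 (adjusted p = 0.0451) and 1.82 (adjusted p = 0.0354) and peaks at hours 19.4 and 19.3. Its warm hours were lower at 1 of them by 2.33 (adjusted p = 0.036). In LD no partner passed the 24-h test, where the lowest p belonged to ran-1 (amplitude 0.24, adjusted p = 0.0958), ceh-18 (1.39, 0.126) and rab-11.1 (0.53, 0.129). In CC none of 51 was called, and sax-7 took the lowest p at 3 probe sets (amplitude 1.68, adjusted p = 0.349 at the first).

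Guidance genes outside the family (24 genes) had rhythm calls on the entrained days, where 1.00% of all probe sets passed the 24-h test in LD and 6.29% in WC, and 11.5% and 3.84% passed the test of earlier against later hours. In LD the ankyrin gene unc-44 passed at 3 probe sets and mig-10, the lamellipodin homologue, at 1, while 8 probe sets were higher in light hours, among them unc-6 (netrin, 2.22), plx-2 (a plexin, 2.88) and mig-10 (1.29). In WC unc-44 passed at 4 probe sets and nid-1, the basement membrane nidogen, at 1, and in CC and DD none passed. By day, 22 of 43 fell and 4 rose for LD minus DD, and 20 of 45 fell and 3 rose for WC minus CC, beside the shares of all probe sets given for the partners. With 1 difference per series, 0 of 43 and 2 of 45 were called. Among those that fell were plx-2 at −3.59 for LD minus DD and −3.37 for WC minus CC, and unc-129, a TGF-beta guidance ligand, at −3.12 and −2.78 in the same order. Among genes of ventral enclosure and epidermal morphogenesis (24 genes, 48 probe sets), 9 passed the light against dark contrast in LD, 8 higher and 1 lower. Those higher were probe sets of let-805, sma-1, vab-9 and ajm-1, which act in hemidesmosomes, the apical cytoskeleton and cell junctions, and the lower was the beta-catenin gene hmp-2 (−0.74). In WC gex-2 passed (amplitude 0.72, adjusted p = 0.0316; warm minus cold hours −0.81). By day 17 of 48 fell in each comparison, and 6 rose for LD minus DD and 8 for WC minus CC, while 0 of 48 were called in either with 1 difference per series.

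Members were next compared with each other over arrays, as a description in which points share series, scaling and populations. The scores of vab-2 and efn-4 at 175497_at ran together in every condition, with Pearson r of 0.86 in LD (n = 18), 0.80 in DD (n = 18), 0.45 in WC (n = 30), 0.80 in CC (n = 18) and 0.43 in controls (n = 11). After the mean of each day was taken away, r was 0.84, 0.77, 0.17, 0.74 and 0.43, so the value was lower by the most in WC. Over all 95 arrays r was 0.78. The 2 probe sets of efn-4 gave an r of 0.68 over all arrays and the 2 of vab-1 gave 0.66, both below the r of vab-2 with efn-4 at 175497_at. The floor bore on the first of these, with 14 of 30 WC, 11 of 18 DD and 9 of 18 LD arrays of 185839_at within 0.1 of it. The r of vab-2 with efn-3 was −0.39 over all arrays.

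**Figure D5:**
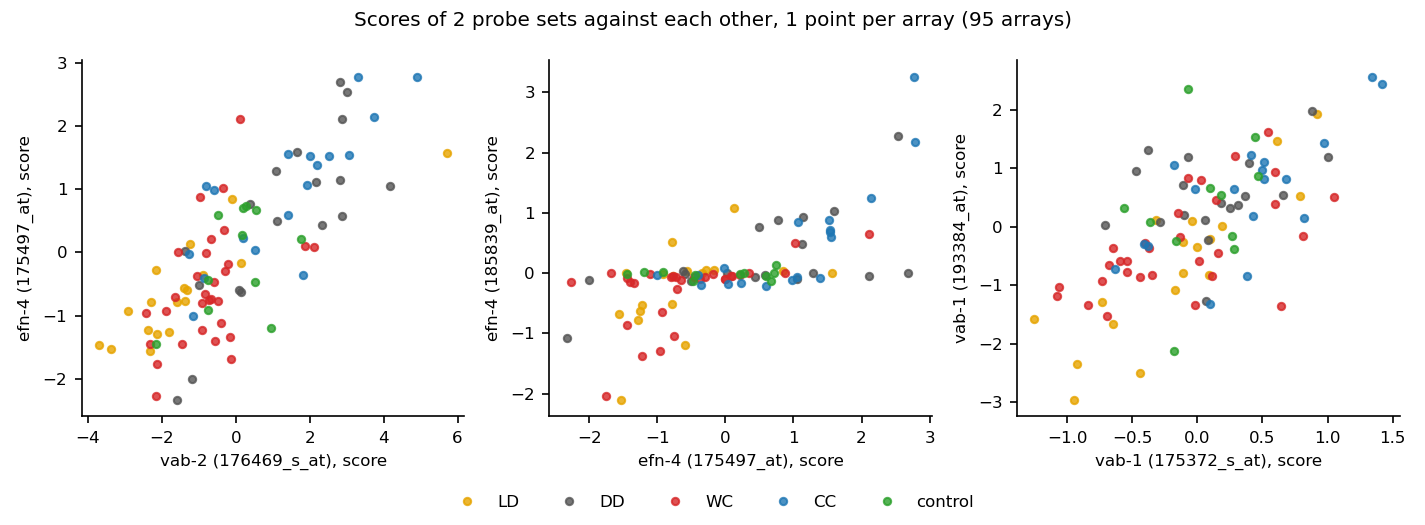
Scores of efn-4 (175497_at) against vab-2, of both efn-4 probe sets and of both vab-1 probe sets against each other, 1 point per array (95 arrays), coloured by condition. Over all arrays r is 0.78, 0.68 and 0.66, and in the middle panel the row of points near 0 is made of arrays in which 185839_at lay on the floor.

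The likeness was also ranked against the rest of the array. Of 15445 probe sets compared in CC, efn-4 at 175497_at took rank 26 by likeness to vab-2 (r = 0.80) and 185839_at rank 136 (r = 0.71), where the 95th percentile was 0.55. The vab-1 probe sets took ranks 5021 and 5947, efn-2 rank 9953 and efn-3 rank 12355. Over the other 77 arrays efn-4 at 175497_at took rank 69 of 13779 (r = 0.73), where the 95th percentile was 0.58. There vab-1 took rank 591 at 193384_at (r = 0.60) and rank 1264 at 175372_s_at (r = 0.49), efn-2 rank 8357 and efn-3 rank 10420. The 5 probe sets most like vab-2 over the 18 CC arrays were those of rnst-2, a T2-family ribonuclease (0.93), nhl-3 (0.91), fbxb-41 (0.90), C35E7.5 (0.89) and eya-1 (0.87). Over the other 77 arrays they were egl-18, a GATA factor (0.85), cdc-25.2, a CDC25 phosphatase (0.81), igcm-4 (0.81), C04A11.2 (0.81) and mls-2, a homeobox factor (0.80). In CC these 5 had an r with vab-2 of 0.49, 0.71, 0.75, 0.43 and 0.36, in the same order. Of the CC list, eya-1, the Eyes absent homologue, also followed vab-2 in LD (0.88), DD (0.80) and WC (0.54), and nhl-3 did not in DD (−0.03). In LD, DD and WC, C35E7.5 gave 0.80, 0.70 and 0.41, rnst-2 gave 0.61, 0.64 and 0.45, and fbxb-41 gave 0.57, 0.61 and 0.44.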

How the data were processed

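The 95 Affymetrix C. elegans arrays were used as deposited. The authors computed log2 expression with GCRMA in R 2.7.1, took it relative to the mean of the time series and set each array to mean 0 and SD 1, so the deposited values are scores. The genome build is not given in the sources used here. In 5 arrays (2 LD, 3 CC) 2 biological replicates were pooled. No 2 arrays correlated above 0.717.

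Members and gene lists were chosen with earlier results of these data known. Scores were fitted per condition with limma 3.58.1 in R 4.3.3 (lmFit, eBayes), with the time series as a term, by a moderated F test of 24-h cosine and sine terms and by the mean of hours 2 to 10 minus that of hours 14 to 22. Joint fits compared rhythms between conditions, and a fit with series and hour compared days. P-values were Benjamini-Hochberg adjusted over all probe sets kept, called at 0.05. Array controls (77) and probe sets whose root mean square distance was under 0.1 from the floor (the median of the densest 5% of an array's scores) were left out. The study describes the time series as independent, but arrays within a series may share animals of 1 culture, so p-values measure the spread between these arrays, whose number limits the precision.

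Every member is named, as are list genes that passed a rhythm test or contrast, the 3 of lowest p where none did, day-difference examples of lowest p, and the 5 probe sets most like vab-2. The exception is 1 list gene, whose result is not reported here. The tests were repeated under other filters, array weights, a linear trend, no time series term, without pooled arrays and without each series. In simulated data with independent arrays, made for some of the comparisons, the median fitted size of the larger changes was near that put in. The share of changed probe sets that were called is not given here. That simulation had no spread shared within a series or a day, so it could not check the calls for that. Descriptions used Python 3.11.15, numpy 2.4.6 and pandas 2.3.3, and figures matplotlib 3.10.9.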

Additional observations from a re-analysis of the deposited data

Results flagged for a closer look

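Among 42 groups of 5 WC arrays (1 probe set at 1 hour), 6 held an array far from the other 4. Chance flags about 1 in 20 groups when the 5 arrays share a common zero. These arrays did not, so that rate is no measure for the 6. For vab-2 the far array was hour 18 of series 1, at 2.11. For vab-1 at 193384_at it was hour 2 of series 2, at 0.93, and hour 14 of series 1, at 1.22. For efn-4 at 185839_at the lowest array was that of series 6 at hours 2 (−0.65), 10 (−2.03) and 18 (−1.04), a probe set that lay on the floor on 14 of 30 WC arrays.

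Some differences between hours 2 to 10 and hours 14 to 22 had opposite signs in every series of a pair of conditions. For vab-2 it was 2.83 in CC and −1.22 in DD. For efn-4 at 175497_at it was 1.05 in CC, −0.64 in WC and −0.74 in DD, and at 185839_at it was 0.87 in CC and −0.28 in WC. Each difference between conditions was not tested, since the CC profile of vab-2 chose the family.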

How the results depend on the processing

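The CC profile of vab-2 kept its direction under every alternative run, with an amplitude of 1.81 to 2.24 when each series was left out. Of the member values under the alternatives, 909 moved little or kept their side of the threshold, 22 lost a call, 3 gained one, 8 untested ones moved by more than the replicate spread and 27 changed sign, and of these 27 only the LD minus DD value of efn-4 185839_at without series 6 was called in the fit reported. With a linear trend over the day in place of single hours, the fit gives the step between earlier and later hours beside a common slope. That step is a different quantity from the difference of their means, so an opposite sign does not show that the means reversed. The step had the opposite sign in LD for vab-1 (0.34 at 175372_s_at, 0.49 at 193384_at), vab-2 (0.74) and efn-4 (0.17 at 175497_at, 0.018 at 185839_at). So it did in DD for vab-1 193384_at (1.04), vab-2 (0.10), efn-3 (0.25) and efn-4 175497_at (1.09), in WC for efn-4 175497_at (0.80) and in controls for efn-4 175497_at (−0.25). The same fit gave steps of 1.94 and 1.89 for the 2 efn-4 probe sets in CC, and 1.01 at 175372_s_at and 2.59 at 193384_at for vab-1. Array weights changed the sign of the difference of earlier and later hours for efn-4 185839_at in LD (0.37), efn-2 in DD (0.15), and vab-1 175372_s_at (−0.11) and efn-3 (0.24) in WC. Without 1 series that difference ran, in LD, from −1.77 to 0.11 for vab-2 and −0.31 to 0.30 for efn-4 185839_at. In DD it ran from −1.28 to 0.40 for efn-2, −0.14 to 0.081 for vab-1 193384_at, −0.25 to 0.11 for efn-3 and −0.45 to 0.00495 for efn-4 185839_at. In WC it ran from −0.22 to 0.17 for vab-1 175372_s_at, −0.51 to 0.14 for efn-3 and −0.65 to 0.084 for vab-2. The LD minus DD day difference of efn-4 185839_at ran from −1.77 to 0.15.

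Array weights called 1 member in the WC rhythm test, efn-2. Without 1 series the number of members called was 0 to 1 for the DD rhythm against controls, 3 for LD minus DD whichever series was left out and 3 to 6 for WC minus CC (vab-2 counted), and with 1 difference per series, an alternative chosen after seeing the data, it was 0 for both days' comparisons. The efn-2 WC minus CC call was also lost without the floor filter (adjusted p = 0.0509). Series numbers are shared between conditions, and a fit with no replicate block (no time series term) called 0 members in the rhythm tests, 5 for LD minus DD and 7 for WC minus CC (vab-2 counted). Over all probe sets that fit called 37 for the LD rhythm, against 160 with the block. Calls over all probe sets ran from 0 to 1002 for the LD rhythm, 281 to 3645 for the WC rhythm, 0 to 310 for the CC rhythm, 0 to 2807 and 26 to 2504 for the difference of earlier and later hours (with a trend, the step) in LD and WC, 92 to 1764 for WC against LD, 0 to 1119 for LD against controls, 0 to 676 for DD against controls, 0 to 14913 for LD minus DD and 93 to 5585 for WC minus CC. The difference of earlier and later hours in controls without 1 series left no residual degrees of freedom and was not run. The causes were not tested. The number of series, 2 to 5 a condition, limits every test, and values near the floor limit efn-4 185839_at.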
